A study of Homo sapiens with 12 samples.

Results

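The genes described here lie beside one another on chromosome 17, around STAT3, STAT5A and STAT5B, and were followed across 3 established prostate cell lines. They were KAT2A, GHDC, STAT5B, STAT5A, STAT3, ATP6V0A1, NAGLU, HSD17B1, COASY and MLX, 10 of the 58302 genes in the deposited table. They were chosen by name, with their measured values in all 3 lines known, as neighbours of CAVIN1, a gene that was near 0 in PC3. Their levels in PC3 are therefore given as a description with no test. The RNA-sequencing covered 4 libraries of BPH-1, a benign prostate epithelial line, and 4 each of DU145 and PC3, both lines of prostate cancer (PCa). All 3 lines carried the genotype label WT and were grown in DMEM with fetal bovine serum, no treatment was labelled, and the study set the benign line against the PCa lines. Each line is a single cultured model, and the labels do not say that the 4 libraries of a line came from separate cultures, so the p-values measure the spread between these libraries, which may be technical.

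STAT proteins wait in the cytoplasm until a cytokine or growth factor receptor and its JAK kinase phosphorylate them. They then pair, enter the nucleus and bind short palindromic DNA elements of target genes, among them SOCS and CISH genes whose products shut the signal off. STAT3 is best known downstream of interleukin-6 and its relatives, and STAT5A and STAT5B downstream of prolactin, growth hormone and interleukin-2. In the prostate, STAT3 and STAT5 have long been studied as growth and survival signals of tumour cells.

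The 250 bases upstream of the RefSeq gene start are shown for the STAT genes, for MLX as a neighbour that stayed expressed in PC3, and for CISH as a classic STAT5 feedback gene (RefSeq, GRCh38.p14). They are printed 5' to 3' on the strand of the gene. Capitals mark matches to the GAS element bound by STAT dimers (TTCNNNGAA), the E-box core bound by MLX with its partners (CACGTG), the GC box (GGGCGG or its complement CCGCCC) and the CCAAT box (CCAAT or its complement ATTGG), searched on both strands. The windows were chr17:42388443-42388692 (minus strand) for STAT3, chr17:42276392-42276641 (minus strand) for STAT5B, chr17:42287297-42287546 (plus strand) for STAT5A, chr17:42566850-42567099 (plus strand) for MLX and chr3:50611775-50612024 (minus strand) for CISH. RefSeq starts can differ from those of the locus column given below. The STAT5B window lies inside the STAT5B locus, and the STAT3 and MLX windows run partly into their own loci.
STAT3: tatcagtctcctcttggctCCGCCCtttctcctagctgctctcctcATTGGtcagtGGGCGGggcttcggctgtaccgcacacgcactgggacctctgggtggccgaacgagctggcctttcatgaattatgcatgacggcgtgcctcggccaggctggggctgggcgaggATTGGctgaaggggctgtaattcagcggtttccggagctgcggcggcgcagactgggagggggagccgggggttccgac
STAT5B: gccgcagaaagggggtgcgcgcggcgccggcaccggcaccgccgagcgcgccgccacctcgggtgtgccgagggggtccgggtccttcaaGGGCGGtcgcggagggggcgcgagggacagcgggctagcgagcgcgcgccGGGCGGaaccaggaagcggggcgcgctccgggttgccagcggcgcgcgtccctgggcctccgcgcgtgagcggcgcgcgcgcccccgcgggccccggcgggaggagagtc
STAT5A: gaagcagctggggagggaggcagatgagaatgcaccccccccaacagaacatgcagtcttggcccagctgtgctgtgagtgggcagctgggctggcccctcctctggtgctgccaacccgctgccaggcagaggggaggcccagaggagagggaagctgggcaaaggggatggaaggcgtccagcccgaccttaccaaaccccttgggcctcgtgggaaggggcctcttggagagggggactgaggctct
MLX: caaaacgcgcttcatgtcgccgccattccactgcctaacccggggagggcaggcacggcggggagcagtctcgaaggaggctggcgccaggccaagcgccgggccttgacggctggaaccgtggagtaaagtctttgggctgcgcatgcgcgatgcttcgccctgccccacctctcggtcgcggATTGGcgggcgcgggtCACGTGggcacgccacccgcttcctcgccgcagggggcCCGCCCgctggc
CISH: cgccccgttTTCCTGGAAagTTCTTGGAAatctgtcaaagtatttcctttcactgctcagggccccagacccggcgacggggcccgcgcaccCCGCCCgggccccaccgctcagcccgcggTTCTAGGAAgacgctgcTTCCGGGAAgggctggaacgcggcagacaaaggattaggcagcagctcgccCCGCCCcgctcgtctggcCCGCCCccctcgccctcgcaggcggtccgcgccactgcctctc
The STAT5A window held none of these motifs, STAT5B held 2 GC boxes, and STAT3 held 2 GC boxes and 2 CCAAT boxes. MLX held 1 E-box, and CISH held 4 GAS elements. CISH is not typical of the STAT target genes, since 2 of the 10 with an entry held a GAS element, CISH and BCL6. No matches overlapped. A GAS element stood in 6.57% of 35116 promoters of this length, an E-box in 6.34%, a GC box in 42.6% and a CCAAT box in 32% of them. Of the 10 genes, 8 had an entry and 0 of these held a GAS element (NAGLU and HSD17B1 had none). A match is a run of letters and not a measured binding site.

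Values are FPKM, a level scaled by gene length and by sequenced fragments, and are compared between lines. The lengths that fit them count each overlapping exon in full, as with 11421 bases for COASY, which has 4032 exon bases. The excess differs by gene, so levels of different genes are only roughly comparable, and a limit of 1 FPKM is not equally strict for each. The depths recovered from the values were 12950657 to 16309560 reads a library. DU145 replicates 1 and 3 stood apart from replicates 2 and 4. Over 12907 genes, Pearson r between libraries was 0.978 for replicates 1 and 3, 0.974 for replicates 2 and 4, and 0.871 to 0.933 across these pairs. The tests of the 10 genes and the counts over lists were therefore also taken with either DU145 pair alone, while single list genes were not. Of the epithelial markers, KRT8 and KRT18 were present in every line (line means of 19.7 to 69 FPKM). EPCAM was at 57.7 to 63.2 FPKM in BPH-1, 6.92 to 11.1 in PC3 and only 0.166 to 0.573 in DU145. CDH1 was low in both PCa lines, at 16.3 to 44.6 FPKM in BPH-1, 0.427 to 1.42 in PC3 and 0.0851 to 0.297 in DU145. The basal genes KRT5, KRT14 and TP63 were high in BPH-1 alone, and KLK3 had 0 reads in all 12 libraries. The summed FPKM of PTPRC, PECAM1, COL1A1 and DCN, markers of other cells, was 3.17 to 4.75 in BPH-1, 0.657 to 1.98 in DU145 and 4.45 to 6.12 in PC3. Its make-up differed by line. PTPRC was at 1.15 to 1.54 FPKM in BPH-1, 0 to 1.35 in DU145 and 0 in PC3. PECAM1 was at 0.130 to 0.179 in BPH-1, 0 to 0.224 in DU145 and 1.19 to 2.28 in PC3. The part of these markers in the results was not tested.

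In PC3, 6 of the 10 genes were at no more than 1 percent of their BPH-1 level. The other 4, which follow them along the chromosome, were at 30.4% to 125% of theirs. HSD17B1, among these 4, was low in every line. The 6 were KAT2A, GHDC, STAT5B, STAT5A, STAT3 and ATP6V0A1. Together they had 62 reads over the 4 PC3 libraries, against 28289 in BPH-1 and 44809 in DU145. For comparison, 0.815% of 8585 protein-coding genes with a mean FPKM of at least 1 in both other lines had at most 3 reads in every PC3 library, and 0.897% were at no more than 1 percent of both other lines. Because these genes were chosen for their PC3 values, nothing is read from that contrast. In bulk RNA, fewer cells with a transcript and less of it per cell cannot be told apart, and DNA copy number was not measured here.

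STAT3 had 15.1, 18.4, 13.2 and 14.7 FPKM in BPH-1 replicates 1 to 4 and 25.4, 25.5, 24.8 and 21.2 in DU145. In the 4 PC3 libraries it had 6, 9, 12 and 6 reads, or 0.0315, 0.0446, 0.0588 and 0.0315 FPKM. The 3 lines did not overlap, with DU145 highest and PC3 at 0.271% of the BPH-1 mean. By summed reads per depth, STAT3 was 366-fold higher in BPH-1 than in PC3 (95% exact binomial interval 260.3 to 532, counting error only) and 581-fold higher in DU145 than in PC3 (413 to 844).

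STAT5B, one of the STAT5 pair, had 6.73, 9.52, 6.44 and 7.12 FPKM in BPH-1 and 20.02, 13.4, 20.4 and 14.7 in DU145. In PC3 it had 2 reads in replicate 1 and 0 in the other 3 libraries. The ratio of BPH-1 to PC3 was 1567 with an interval of 433 to 12940.4, wide because it rests on 2 reads. STAT5A, its neighbour and paralogue, had 2.59, 3.23, 1.52 and 2.49 FPKM in BPH-1 and 4.89, 4.00, 4.78 and 3.59 in DU145. It had 0 reads in all 4 PC3 libraries, so BPH-1 was at least 123-fold higher and DU145 at least 216-fold higher, taking 3 reads per PC3 library as the limit. STAT5A was the lower of the pair in every BPH-1 and DU145 library, by FPKM and by reads. Their transcripts share sequence, with 8.61% of the 50-base words of STAT5A also in STAT5B, so reads from that shared part could have been counted for either gene.

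KAT2A, the histone acetyltransferase subunit of the SAGA and ATAC complexes, comes first along the chromosome. It had 12.04, 14.6, 13.6 and 11.1 FPKM in BPH-1 and 19.0, 18.3, 21.4 and 15.2 in DU145, against 3, 1, 0 and 2 reads in PC3. That is a 675-fold difference between BPH-1 and PC3 (309.7 to 1839). Its exons share 405 bases with AC099811.2, a gene model that had 0 reads in PC3. At the other end of the low genes, ATP6V0A1, an a subunit of the proton pump that acidifies vesicles, had 2.001, 2.87, 2.39 and 3.25 FPKM in BPH-1 and 3.30, 3.33, 3.34 and 3.69 in DU145. It had 4, 2, 6 and 9 reads in PC3, 0.657% of the BPH-1 mean. It was 153-fold higher in BPH-1 than in PC3 by reads (100.1 to 248).

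GHDC was the one gene of the 10 that was close to the reading limit in both PCa lines. It had 1.26, 1.23, 1.05 and 1.45 FPKM in BPH-1 (131 to 181 reads), 4, 3, 7 and 1 reads in DU145 and 0 reads in every PC3 library. BPH-1 was 40.9-fold above DU145 (24.6 to 73.5) and at least 44.5-fold above PC3. With so few reads in DU145, no order between DU145 and PC3 can be read for GHDC.

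The 4 genes further along kept 30.4% to 125% of their BPH-1 means in PC3. NAGLU, the lysosomal enzyme that removes N-acetylglucosamine from heparan sulfate, had 1.69, 2.34, 1.71 and 1.77 FPKM in BPH-1, 11.9, 7.13, 11.7 and 8.84 in DU145 and 0.860, 0.978, 1.18 and 0.802 in PC3. The lines did not overlap, and DU145 stood 10.3-fold above PC3 by reads (9.12 to 11.7). HSD17B1, which reduces oestrone to oestradiol, was low throughout, at 0.535, 0.481, 0.659 and 0.554 FPKM in BPH-1, 0.348, 0.113, 0.170 and 0.166 in DU145 and 0.132, 0.115, 0.198 and 0.233 in PC3. DU145 and PC3 overlapped for HSD17B1. Of its exon bases, 34.8% are shared with the antisense gene AC067852.2, which was at line means of 10.3 to 14.9 FPKM, and the use of strand in counting is not given in the sources used here, so the HSD17B1 values are uncertain.

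COASY, the enzyme of the last steps of coenzyme A synthesis, had 7.54, 6.82, 6.95 and 7.25 FPKM in BPH-1, 11.9, 8.26, 13.5 and 8.61 in DU145 and 5.89, 5.75, 7.03 and 8.14 in PC3. MLX, the dimer partner of the glucose-sensing factors MLXIP and MLXIPL, had 6.46, 5.82, 6.15 and 6.30 in BPH-1, 10.6, 7.13, 11.3 and 5.08 in DU145 and 7.47, 7.07, 7.16 and 9.28 in PC3. PC3 overlapped BPH-1 for COASY and stood above every BPH-1 library for MLX, at 125% of the BPH-1 mean. For MLX, 18.1% of exon bases are shared with PSMC3IP on the other strand, which was at line means of 4.77 to 14.6 FPKM.

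**Figure D1:**
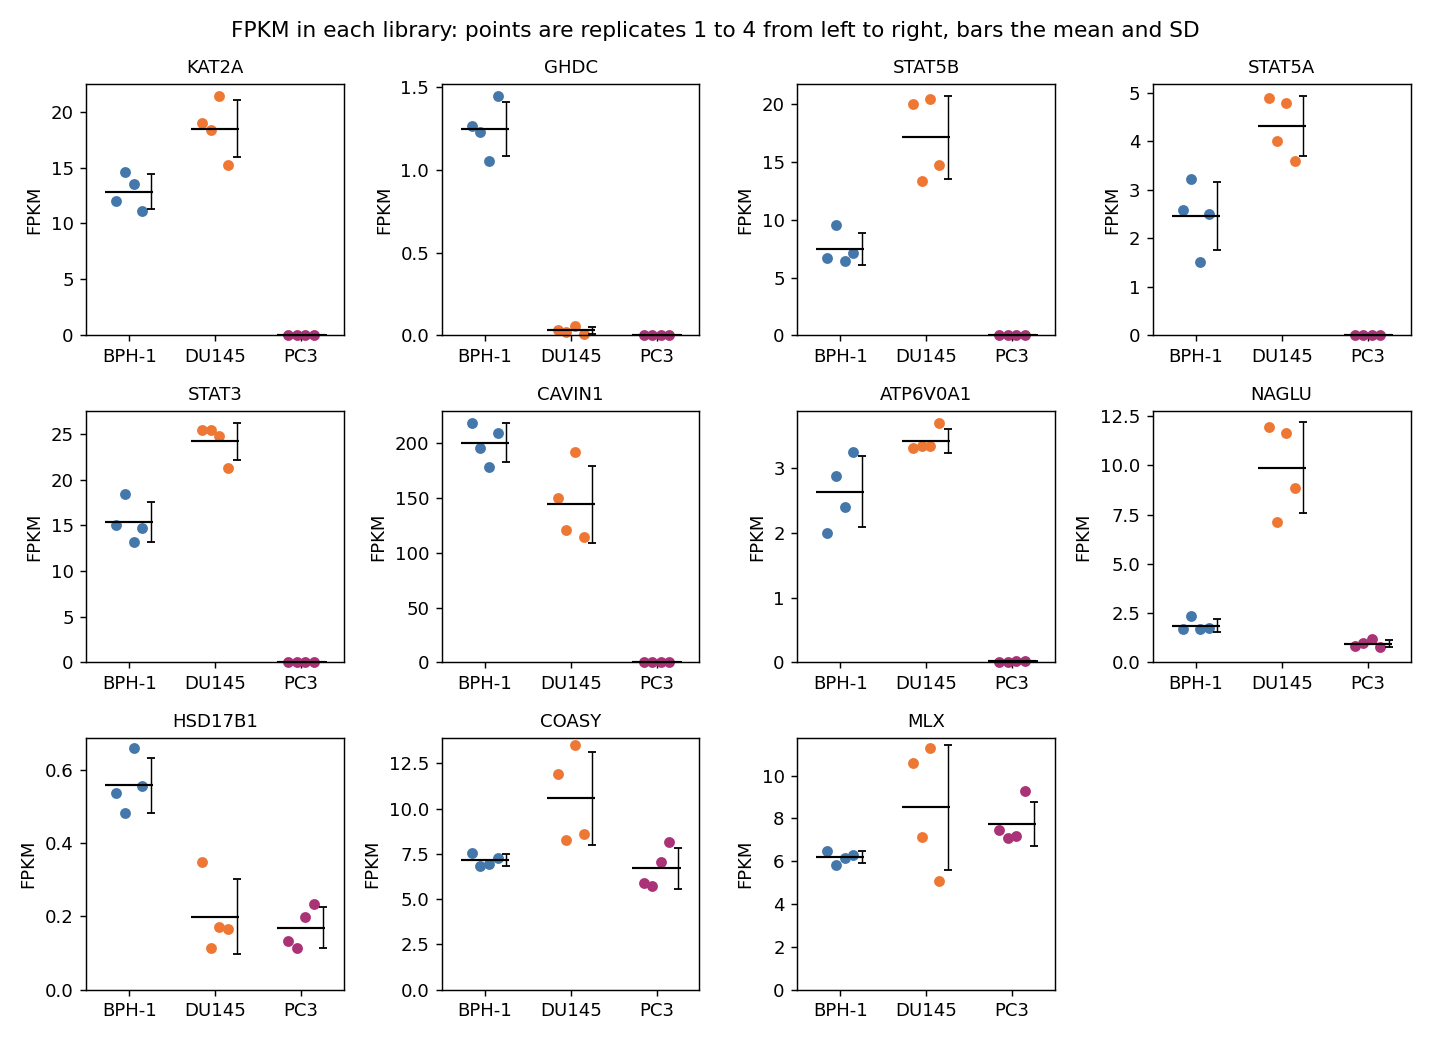
FPKM (y axis, from 0) of CAVIN1 and the 10 genes in chromosomal order, in each of 4 BPH-1, 4 DU145 and 4 PC3 libraries. Points are libraries and bars the mean and SD. PC3 points of KAT2A to ATP6V0A1 lie at the bottom of each panel, and those of NAGLU, HSD17B1, COASY and MLX do not.

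Read in the order of the locus column (GRCh38), the genes span chr17:42113108-42573239, 460132 bases. KAT2A lies at chr17:42113108-42121358 (minus strand), GHDC at chr17:42188799-42194532 (minus), STAT5B at chr17:42199168-42276707 (minus), STAT5A at chr17:42287547-42311943 (plus), STAT3 at chr17:42313324-42388568 (minus), ATP6V0A1 at chr17:42458844-42522611 (plus), NAGLU at chr17:42536172-42544449 (plus), HSD17B1 at chr17:42549214-42555213 (plus), COASY at chr17:42561467-42566277 (plus) and MLX at chr17:42567068-42573239 (plus). STAT5A and STAT3 are 1380 bases apart. The genes that were low in PC3 lie on both strands.

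Between STAT3 and ATP6V0A1 lies CAVIN1 (chr17:42402452-42423517, minus strand), which coats caveolae. It had 218, 195, 178 and 209 FPKM in BPH-1, 150, 121, 192 and 114 in DU145 and 4, 7, 16 and 3 reads in PC3. Its PC3 mean was 0.072% of the BPH-1 mean. The genes named next were not among the 10. DHX58, a helicase of the RNA-sensing pathway, had 0 reads in every PC3 library and 66 to 198 in BPH-1. RAB5C, a GTPase of early endosomes, had 0 to 3 reads in PC3 against 1200 to 1630 in BPH-1.

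The low stretch ran from the start of DHX58 to the end of ATP6V0A1, chr17:42101404-42522611, 421208 bases. It held 10 protein-coding genes with a mean of at least 1 FPKM in BPH-1 or DU145, and each was at or below 0.657% of its BPH-1 mean in PC3, with at most 16 reads in a library. Among them, AC099811.2 overlaps KAT2A and RAB5C on the same strand. Of the 23 rows of any type in the stretch, 17 had 0 reads in PC3. Another 3 had more than 3 reads in a PC3 library, namely STAT3, CAVIN1 and ATP6V0A1. Downstream, the processed pseudogene PTP4A2P1 had 31 to 51 reads in PC3, 26 to 33 in BPH-1 and 23 to 38 in DU145. Whether those reads came from this locus was not tested. NAGLU began 13560 bases after ATP6V0A1. All 25 expressed protein-coding genes on that side, within 500000 bases of MLX, were above 1 percent of BPH-1, the lowest at 12%. Upstream, C17orf113 and ZNF385C had 4 to 9 and 3 to 11 reads in PC3, at 13.1% and 18.4% of BPH-1, and NKIRAS2 was at 88%. Of 16 expressed genes upstream, within 500000 bases of KAT2A, 14 were above 1 percent. The other 2, the basal keratin KRT17 and the gastrin gene GAST, were near 0 in DU145 too, at 0.282 and 0 FPKM, and lie apart from the stretch.

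**Figure D2:**
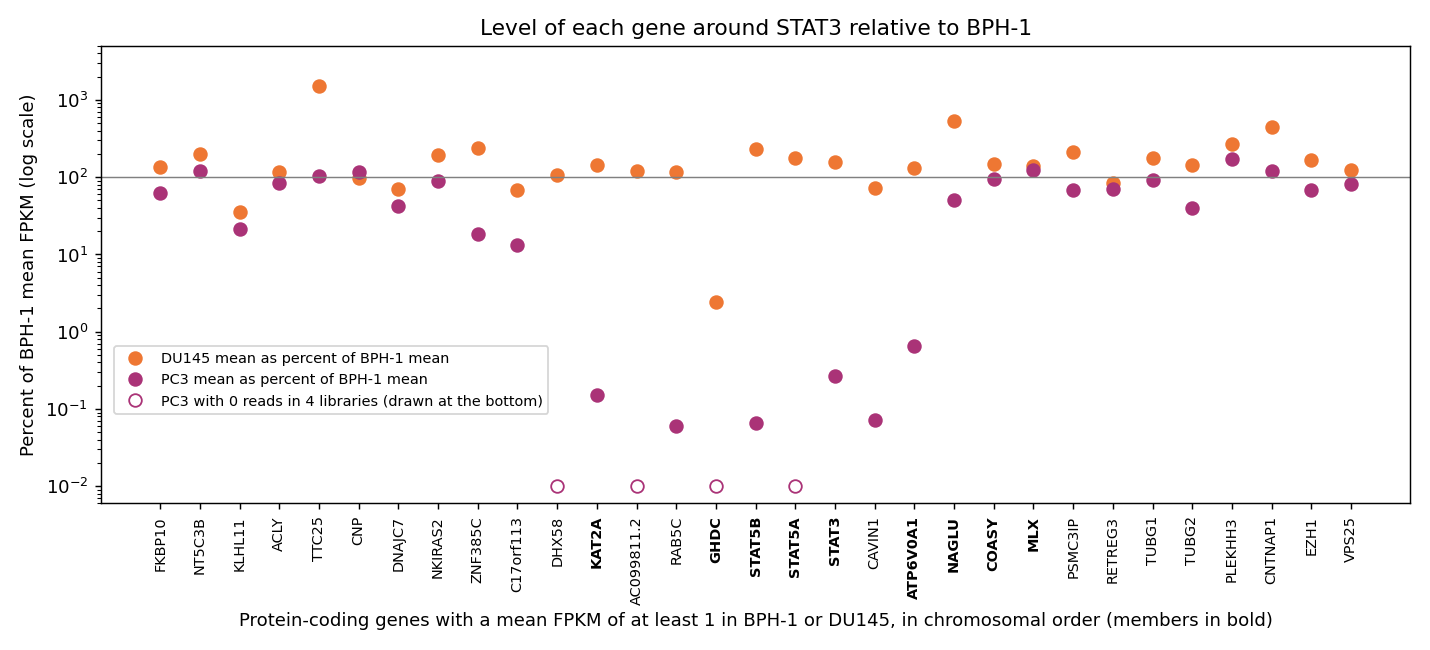
Mean FPKM of DU145 and PC3 as a percent of the BPH-1 mean (y axis, log scale) for protein-coding genes in chromosomal order (x axis, the described genes in bold; HSD17B1 is below the level shown). PC3 points from DHX58 to ATP6V0A1 lie at or below 0.657%, with open circles for 0 reads, whereas GHDC at 2.4% is the one DU145 point below 10 percent.

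Runs of low neighbours were also sought over the whole genome in each line, by a different rule from that of the stretch above. Among protein-coding genes with a mean FPKM of at least 1 in both other lines, 70 had at most 3 reads in every PC3 library, 33 in every DU145 library and 12 in every BPH-1 library. The longest run of neighbours at that floor in PC3 was 6 genes, DHX58, KAT2A, AC099811.2, RAB5C, STAT5B and STAT5A (GHDC was not among the genes read because of its low DU145 level). AC099811.2 overlaps KAT2A and RAB5C on the same strand, so the run lengths given here do not count separate loci only. One other PC3 run held 3 genes, on chromosome Y, and no run in DU145 passed 2 genes. With no more than 1 percent of both other lines as the limit, the run on chromosome 17 grew to 9 genes and took in STAT3, CAVIN1 and ATP6V0A1. That limit was chosen after these values were seen and these genes lie below it, so the growth is a description and no support. The longest run in PC3 was 4 genes, KAT2A, AC099811.2, RAB5C and STAT5B, when the other lines had to reach a mean of 3 FPKM.

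Outside the 500000-base window, the genes whose pattern was most like that of STAT3 were sought over the 12 libraries by Pearson r on log2(FPKM + 1), among 9948 genes with a mean of at least 1 FPKM in BPH-1 and DU145. The first was RPS4Y1 on chromosome Y, whose level is not given. TGFBI (r = 0.997), an extracellular matrix protein, HOXB7 (r = 0.995), a homeobox factor, CTNNA1 (r = 0.994), which links cadherins to actin, and FZD7 (r = 0.994), a WNT receptor, followed. TGFBI and CTNNA1 lie on chromosome 5, FZD7 on chromosome 2 and HOXB7 on chromosome 17. Their PC3 means were 0.101, 0.119, 0.0495 and 0.257 FPKM in the order named. These r values describe differences between 3 lines, since the 4 libraries of a line lie close together.

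Between DU145 and BPH-1, where PC3 plays no part, 8 of the 10 genes differed at an adjusted p under 0.05 by limma on log2(FPKM + 1), 6 higher and 2 lower in DU145. All 3 STAT genes, KAT2A, NAGLU and COASY were higher, and GHDC and HSD17B1 were lower. GHDC is in this count although it passed the filter on low values only through BPH-1 and so had to differ. The background was high, since 62.7% of 17017 genes tested were called, 30.3% higher and 32.4% lower. The 10 genes were chosen with these values known, so the count is no independent support. Their median log2 difference was 0.49, against -0.03 over all genes tested. For 9 of the 10 genes the libraries of the 2 lines did not overlap, as for 59.5% of all genes tested. All 9 then had the smallest p that an exact permutation test of 4 against 4 libraries can give, 0.0286 (two-sided, not adjusted).

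STAT5B had a mean of 17.1 ± 3.61 FPKM in DU145 and 7.45 ± 1.40 in BPH-1 (SD, n = 4 each), a difference of 1.09 ± 0.19 on the log2 scale (SE, limma adjusted p = 0.000744). STAT3 was at 24.2 ± 2.02 against 15.4 ± 2.18 FPKM (log2 difference 0.63 ± 0.15, limma adjusted p = 0.00479). STAT5A was at 4.32 ± 0.624 against 2.46 ± 0.705 FPKM (0.64 ± 0.19, limma adjusted p = 0.015). The 3 STAT genes were thus 1.58 to 2.30 times as high in DU145 by mean FPKM. Their order by FPKM was the same in both lines, STAT3 above STAT5B above STAT5A, with no overlap between neighbours in that order. How far the gene lengths enter into that order was not tested.

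NAGLU, which had the largest of the higher values in DU145 on this scale, was at 9.89 ± 2.31 FPKM in DU145 and 1.88 ± 0.309 in BPH-1 (log2 difference 1.90 ± 0.19, limma adjusted p = 2.05e-05). KAT2A was at 18.5 ± 2.57 against 12.8 ± 1.57 FPKM (0.49 ± 0.16, limma adjusted p = 0.022), and COASY at 10.6 ± 2.55 against 7.14 ± 0.323 (0.48 ± 0.18, limma adjusted p = 0.0392). GHDC passed the filter on low values only through BPH-1, so it had to differ. Its difference was -1.12 ± 0.07 on the log2(FPKM + 1) scale, which understates the change of a low gene. It had 1 to 7 reads in DU145 and 131 to 181 in BPH-1, given in place of a p-value. HSD17B1 differed by -0.38 ± 0.07 (limma adjusted p = 0.00128), within the limits on its counting given above. ATP6V0A1 (0.30 ± 0.16, limma adjusted p = 0.128) and MLX (0.35 ± 0.23, limma adjusted p = 0.199) did not pass.

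The calls of STAT5B, NAGLU and HSD17B1 held in each DU145 pair alone. DU145 replicates 1 and 3 both stood above replicates 2 and 4 for 8 of the 10 genes, the exceptions being STAT3 and ATP6V0A1. For MLX the log2 difference was 0.73 with replicates 1 and 3 alone (limma adjusted p = 0.000665) and -0.030 with replicates 2 and 4 alone (0.864), and without DU145 replicate 4 it was 0.55 (0.0312). For COASY it was 0.75 (0.000706) and 0.21 (0.0961), and for KAT2A 0.62 (0.00488) and 0.36 (0.0574). STAT3 kept its call in both pairs, at 0.68 (0.00341) and 0.58 (0.012), while STAT5A fell short with replicates 2 and 4 alone (0.50, adjusted p = 0.0759). KAT2A also missed the threshold without BPH-1 replicate 1 (0.46, adjusted p = 0.0608), BPH-1 replicate 4 (0.43, 0.0698) or DU145 replicate 1 (0.48, 0.0586), and COASY missed it without any 1 of the BPH-1 libraries or without DU145 replicate 1 or 3 (0.36 to 0.50).

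The summed FPKM was 243707 to 249733 in BPH-1 and 289756 to 302456 in DU145. With every library brought to the same sum, the median of all genes moved from -0.03 to -0.16, and 38.6% of calls were higher in DU145 in place of 48.4%. STAT3 (0.39, adjusted p = 0.053), STAT5A (0.45, 0.0684), KAT2A (0.26, 0.209) and COASY (0.26, 0.242) then missed the threshold with limma. Relative to the new median, the differences of STAT5B, STAT5A and STAT3 were 1.03, 0.62 and 0.56.

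**Figure D3:**
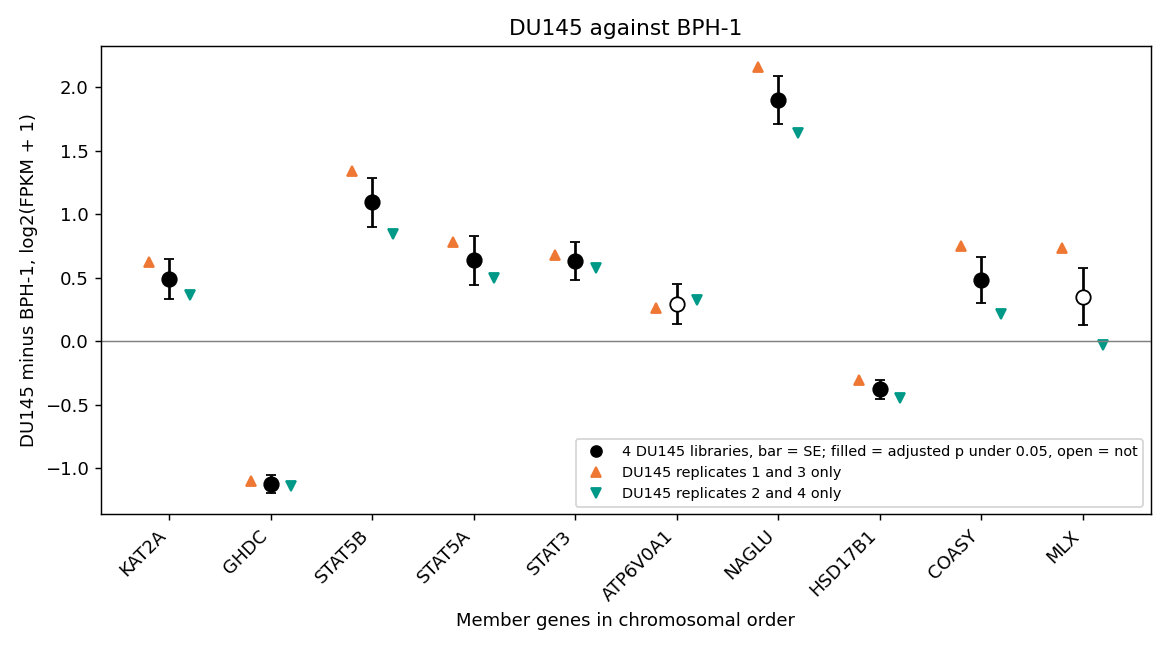
Difference between DU145 and BPH-1 in log2(FPKM + 1) (y axis) for the 10 genes in chromosomal order. Circles with SE bars use all 4 DU145 libraries, filled where the limma adjusted p was under 0.05, and triangles use DU145 replicates 1 and 3 or 2 and 4 alone. MLX lies at 0.73 with replicates 1 and 3 and -0.030 with the other.

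The genes that work with these 10 were followed by lists. All 3 pairs of lines were tested by limma, with 67.6% of 16407 genes called between PC3 and BPH-1 (27.1% higher and 40.4% lower in PC3) and 48.3% of 16421 between PC3 and DU145 (20% higher and 28.3% lower in PC3). Over all genes tested the median log2 difference was -0.13 and -0.05 in these comparisons. The comparisons share libraries, so they are not independent of each other. Adjusted p-values below are from limma. Of 110 calls over these lists and comparisons, 14 were of 8 genes with under 10 reads in every library of the lower line (HSD17B2, HSD17B14, MLXIPL, OSM, CCND2, ATP6V0A4, ARSG and STAT4). These passed the filter on low values through the other line alone, so they had to differ, and reads are given for them in place of a p-value.

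The other STAT genes stayed expressed in PC3 apart from STAT4. Of the 3 followed here, 2 were called in PC3 against BPH-1 (1 higher, 1 lower, median log2 difference 0.42) and 1 in DU145 against BPH-1 (higher, median 0.24). Between PC3 and DU145, 2 of 3 were called, both lower in PC3 (median -0.64). STAT6, the interleukin-4 member, was higher in both PCa lines, at 4.43 ± 1.10 FPKM in BPH-1, 11.4 ± 1.91 in DU145 (adjusted p = 0.000444) and 6.18 ± 0.481 in PC3 (adjusted p = 0.0353). STAT6 lost its call in PC3 without BPH-1 replicate 1, 3 or 4 or PC3 replicate 2 or 3, which left 1 call among the 3 genes. STAT4 had 2, 3, 7 and 2 reads in PC3 and 25 to 68 in BPH-1, and passed the filter against PC3 only through the other line. STAT2 did not pass in any pair.

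Of 16 target and feedback genes of STAT3 and STAT5, 11 of 15 tested were called between PC3 and BPH-1, 5 higher and 6 lower (median 0.12), a share near the background. Between DU145 and BPH-1 it was 12 of 15, with 6 in each direction (median 0.12). Between PC3 and DU145 it was 10 of 13, with 6 higher and 4 lower in PC3 (median 0.43). IL2RA, a STAT5 target of T cells, had at most 2 reads in any library and was not tested.

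The feedback inhibitors went different ways in PC3. SOCS2 had 2.03, 1.03, 1.997 and 1.10 FPKM in BPH-1, 1.89, 1.60, 0.871 and 1.57 in DU145 and 0.232, 0.223, 0.0761 and 0.107 in PC3. It was lower in PC3 than in either line (log2 difference -1.11 from BPH-1, adjusted p = 0.000109, and -1.08 from DU145, adjusted p = 0.000178), and PC3 overlapped neither. SOCS3 had 10.0, 12.2, 13.9 and 9.65 FPKM in BPH-1, 13.7, 9.89, 16.2 and 10.6 in DU145 and 21.4, 18.3, 20.8 and 26.0 in PC3. It was higher in PC3 than in either (0.86, adjusted p = 0.000587, and 0.75, adjusted p = 0.00788), again with no overlap. CISH, whose upstream window with 4 GAS elements is printed above, had 0.383 to 0.596 FPKM in BPH-1, 0.0883 to 0.198 in DU145 and 0.551 to 0.710 in PC3. CISH was lower in DU145 than in BPH-1 (-0.37, adjusted p = 0.000467) and did not pass between PC3 and BPH-1 (0.12, adjusted p = 0.131). SOCS1 had 0.529 to 1.63 FPKM in BPH-1, 0 to 0.504 in DU145 and 0.883 to 1.91 in PC3, lower in DU145 than in BPH-1 (adjusted p = 0.00495).

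Among survival and growth genes, BCL2L1, an inhibitor of apoptosis, was higher in both PCa lines, at 13.3 ± 0.773 FPKM in BPH-1, 62.4 ± 15.4 in DU145 and 54.5 ± 6.98 in PC3 (adjusted p = 9.64e-06 and 7.01e-07). The cyclin gene CCND1 was higher in both as well, at 69 ± 8.79, 115 ± 12.1 and 182 ± 7.46 FPKM (adjusted p = 0.00185 and 4.27e-06). CCND2 had 35.5 to 56.2 FPKM in BPH-1, 3 to 29 reads in DU145 and 2 or 3 reads in each PC3 library. MCL1, related to BCL2L1, was lower in PC3 at 18.7 ± 1.96 against 37.5 ± 2.44 FPKM in BPH-1 (adjusted p = 3.83e-05). PIM1, a STAT-induced kinase, had 14.1, 25.4, 16.3 and 14.8 FPKM in BPH-1, 37.5, 25.1, 41.4 and 27.5 in DU145 and 4.67, 8.24, 12.6 and 6.95 in PC3. DU145 overlapped BPH-1 in 1 library, replicate 2, and PC3 lay below every other library. VEGFA was higher in DU145 alone, at 24.3 ± 2.99 FPKM against 3.49 ± 1.37 in BPH-1 (adjusted p = 8.08e-06) and 4.44 ± 1.72 in PC3 (PC3 against BPH-1, adjusted p = 0.366). BCL3 and BCL6, regulators of transcription, were higher in both PCa lines, and JUNB was lower in both. PIM2 was lower in DU145, and OSM, which passed the filter only through BPH-1, had at most 3 reads in any library of either PCa line.

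**Figure D4:**
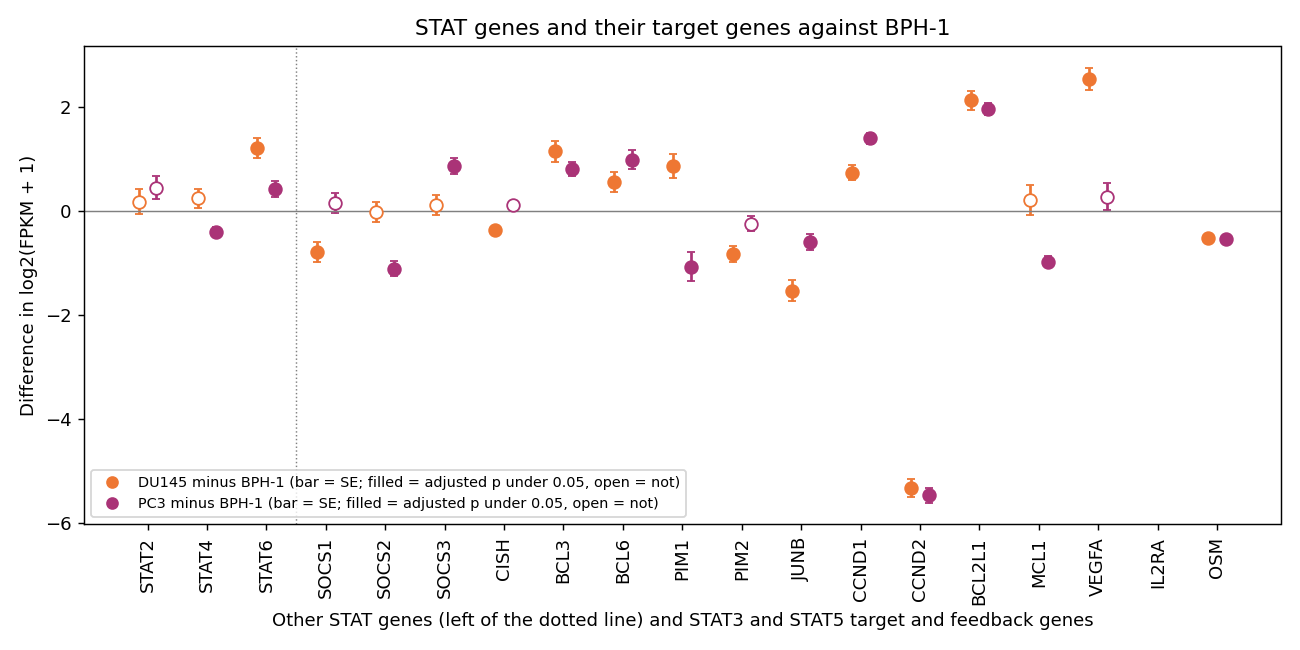
Difference from BPH-1 in log2(FPKM + 1) (y axis) of DU145 and PC3 for 3 other STAT genes and 16 STAT3 and STAT5 target and feedback genes (x axis). Bars are SE and filled points have a limma adjusted p under 0.05. SOCS2 and PIM1 lie below 0 in PC3 and SOCS3 above, and CCND2 lies below -5 in both lines; IL2RA was not tested.

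KAT2A has a paralogue, KAT2B, which can take its place in the complexes. KAT2B had 0.801, 1.58, 1.10 and 1.59 FPKM in BPH-1, 0.381, 1.795, 0.215 and 1.47 in DU145 and 3.21, 3.81, 2.32 and 0.538 in PC3. In PC3, 3 libraries lay above every BPH-1 and DU145 library and replicate 4 within their range, and KAT2B did not pass in any pair (PC3 against BPH-1, 0.51 ± 0.32, adjusted p = 0.19). Of 10 complex genes in the table, 6 were called between PC3 and BPH-1 (2 higher, 4 lower, median -0.04), 3 between DU145 and BPH-1 (3 higher, median -0.15) and 3 between PC3 and DU145 (1 higher, 2 lower, median -0.02). TADA3, an adaptor subunit, was at 6.19 ± 0.687 FPKM in BPH-1, 18.7 ± 3.71 in DU145 and 21.7 ± 2.04 in PC3 (PC3 against BPH-1, adjusted p = 2.09e-06). TADA2A, the adaptor of ATAC, was at 1.48 to 1.76 FPKM in PC3, 2.501 to 2.74 in BPH-1 and 3.77 to 5.38 in DU145. ZZZ3 was not analysed here.

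The 3 paralogues of ATP6V0A1 were all called between PC3 and BPH-1, 2 higher and 1 lower (median 0.55). ATP6V0A2 was at 1.44 to 1.79 FPKM in BPH-1 and 2.59 to 3.28 in PC3 (0.55 ± 0.11, adjusted p = 0.00162). TCIRG1, the subunit of osteoclasts, was at 2.57 to 3.92 and 4.38 to 7.23 FPKM (0.67 ± 0.17, adjusted p = 0.00555). ATP6V0A4, the subunit of kidney and epididymis, had 0, 4, 3 and 0 reads in PC3 and 16 to 41 in BPH-1, and passed the filter against PC3 only through the other line. Only ATP6V0A4 of the 3 was called between DU145 and BPH-1 (higher, list median 0.35) and between PC3 and DU145 (lower in PC3, list median 0.20).

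Of the 8 genes around MLX, 5 of 7 tested were called between PC3 and BPH-1 (2 higher, 3 lower, median 0.14), 4 of 8 between DU145 and BPH-1 (2 higher, 2 lower, median -0.09) and 6 of 8 between PC3 and DU145 (5 higher, 1 lower, median 0.44). MLXIP, a partner of MLX, was at 4.20 ± 0.201 FPKM in BPH-1 and 6.73 ± 1.01 in PC3 (adjusted p = 0.00211), whereas the partner MLXIPL had at most 7 reads in a PC3 library. The glucose-responsive targets TXNIP and ARRDC4 were lower in both PCa lines. TXNIP had 30.1 to 50.2 FPKM in BPH-1, 3.29, 4.19, 0.0848 and 0.390 in DU145 and 11.9 to 18.8 in PC3. ARRDC4 had 5.92 to 8.19 FPKM in BPH-1, at most 0.226 in DU145 and 0.209 to 0.681 in PC3 (adjusted p = 4.18e-07 in DU145 and 7.56e-07 in PC3). MXD4, a repressor of the network, was higher in both, at 2.04 ± 0.217, 3.53 ± 1.08 and 6.77 ± 1.36 FPKM in BPH-1, DU145 and PC3.

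In coenzyme A synthesis, 4 of the 6 genes listed beside COASY were called between PC3 and BPH-1 (1 higher, 3 lower, median -0.27), 3 between DU145 and BPH-1 (1 higher, 2 lower, median -0.11) and 3 between PC3 and DU145 (1 higher, 2 lower, median 0.03). PANK3, a pantothenate kinase, was at 9.56 to 12.7 FPKM in BPH-1, 0.271 to 1.82 in DU145 and 0.746 to 2.75 in PC3, lower in both PCa lines. PANK4 was higher in PC3 at 6.97 ± 0.648 against 2.70 ± 0.451 FPKM in BPH-1 (adjusted p = 4.65e-05). PPCDC, the decarboxylase of the pathway, was higher in DU145 at 3.92 to 6.69 FPKM against 1.07 to 1.29 in BPH-1 (adjusted p = 8.23e-05), while PC3 was at 0.788 to 1.16.

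Of 7 enzymes that break down heparan sulfate with NAGLU, 5 were called between DU145 and BPH-1, 4 higher and 1 lower (median 0.61). Over all genes tested, 62.7% were called in that comparison, so the count is near the background. The 4 were SGSH, IDUA, GUSB and ARSG, and IDS was lower. Between PC3 and BPH-1, 3 were called, all higher (SGSH, GUSB and ARSG, median 0.19), against 67.6% of all genes tested. Between PC3 and DU145 4 were called, 1 higher and 3 lower (median -0.27). ARSG had 1 to 8 reads in BPH-1, 68 to 127 in DU145 and 19 to 27 in PC3. It passed the filter against BPH-1 only through the other line, so both of these differences had to be positive. SGSH, the sulfamidase, had 0.550, 0.926, 0.659 and 1.14 FPKM in BPH-1, 3.66, 2.73, 4.29 and 2.88 in DU145 and 2.62, 2.85, 2.08 and 2.90 in PC3.

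Of 10 genes of the 17-beta-hydroxysteroid dehydrogenase family and of oestrogen supply, all 9 tested were called between PC3 and BPH-1, 2 higher and 7 lower (median -0.72). It was 6 of 9 between DU145 and BPH-1 (1 higher, 5 lower, median -0.27) and 3 of 9 between PC3 and DU145 (2 higher, 1 lower, median 0.02). HSD17B12 was lower in both PCa lines, at 7.45 ± 2.02 FPKM in BPH-1, 1.46 ± 0.788 in DU145 and 1.61 ± 0.535 in PC3, and HSD17B8 was lower in both too. HSD17B14, which oxidises oestradiol, reached no more than 5 reads in BPH-1 and was at 3.70 to 6.25 FPKM in DU145 and 3.32 to 4.41 in PC3. HSD17B2, another oestradiol-oxidising enzyme, had 0 reads in DU145, 14 to 35 in BPH-1 and 46 to 106 in PC3. CYP19A1, the aromatase, had at most 7 reads in any library and was not tested. STS, the steroid sulfatase, was lower in both PCa lines, at 3.51 to 6.54 FPKM in BPH-1, 0.258 to 1.23 in DU145 and 1.04 to 3.30 in PC3.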

How the data were processed

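RNA-sequencing of 4 BPH-1, 4 DU145 and 4 PC3 libraries was read from a table of 58302 genes. The authors deposited normalized values in the form of FPKM; the header names no unit. The submitters' processing notes name CASAVA 1.8, HISAT2 2.1.0 and edgeR and the builds GRCh38 and hg38, with no roles; filters and the use of strand are not given in the sources used here. For 56610 genes the locus was that of GENCODE 29. Its exon lengths, with overlapping exons each counted in full, gave the depth of each library (12950657 to 16309560 reads). Of values under 20 reads, 92.2% to 93.8% came out whole to within 0.02 reads. For 263 genes there was no length, and they were not tested. Reads served the filter, the limit of 3 reads and the ratios with exact intervals (95%), which cover counting error only.

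Each pair of lines was fitted alone on log2(FPKM + 1) by limma 3.58.1 (R 4.3.3), the prior variance following the mean level. A gene was tested when 4 or more libraries reached the value of 10 reads at the median depth and the libraries held 15 reads in all, with Benjamini-Hochberg adjustment over all genes tested and a threshold of 0.05. On simulated DU145 and BPH-1 libraries (16381 genes), 97% of 200 genes changed 2-fold were recovered, and 12 of 206 calls were unchanged genes. The simulation used 1 fixed spread, changed only well-read genes and far fewer genes than were called in the data. It had no split among the DU145 replicates, so these shares need not hold for the real libraries. Exact permutation tests were two-sided. Python 3.11.15 with numpy 2.4.6, pandas 2.3.3, scipy 1.17.1 and matplotlib 3.10.9 was used.

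The genes and lists were chosen with earlier results of these data known. Named were the 10 genes, CAVIN1, expressed genes within 500000 bases, list genes called in any pair or at 3 reads or fewer, the 5 genes most like STAT3, and runs of 3 or more neighbours at the floor; groups are summarised where many. Levels of genes on chromosome Y are not given, and 1 gene of the STAT list is not reported here. Alternatives changed the filter, the pseudocount, the scaling, the libraries and the fit (voom on recovered reads, 1 fit over 12 libraries, replicate block).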

Additional observations from a re-analysis of the deposited data

Results flagged for a closer look

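Of 31 groups of 4 libraries searched, 4 held a library that stood apart from the other 3 by Dixon's criterion at 95%, and chance flags about 1 group in 20. STAT5B had 0.0196 FPKM (2 reads) in PC3 replicate 1 and 0 in the other 3 PC3 libraries. STAT3 had 21.2 FPKM in DU145 replicate 4 against 24.8 to 25.5 in the others. ATP6V0A1 had 3.69 FPKM in DU145 replicate 4 against 3.30 to 3.34 in the others. NAGLU had 2.34 FPKM in BPH-1 replicate 2 against 1.69 to 1.77 in the others.

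For 4 list genes the PCa lines moved in opposite directions from BPH-1, each called against BPH-1 and in the direct test of PC3 against DU145 (limma on log2(FPKM + 1)). PIM1 was higher in DU145 (0.87) and lower in PC3 (-1.07), and PC3 differed from DU145 by -1.94 (adjusted p = 0.000365). TADA2A was higher in DU145 (0.62) and lower in PC3 (-0.43), a difference of -1.05 (adjusted p = 0.000298). ATP6V0A4 was higher in DU145 (0.83) and lower in PC3 (-0.26), a difference of -1.09. It had 0 to 4 reads in PC3 and passed the filter there only through the other line, so both PC3 differences had to be negative. HSD17B2 was lower in DU145 (-0.15) and higher in PC3 (0.45), a difference of 0.60. It had 0 reads in DU145 and passed the filter there only through the other line, so both DU145 differences had a fixed direction.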

How the results depend on the processing

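The count of called genes among the 10 between DU145 and BPH-1 was 8, and 4 to 9 over 19 alternatives. It was 4 with the libraries rescaled to the same sum, 5 with DU145 replicates 2 and 4 alone, and 6 to 9 without 1 library. MLX reversed to -0.030 with DU145 replicates 2 and 4 alone. COASY lost its call in 10 of 18 alternatives, KAT2A in 5, STAT5A in 2 and STAT3 in 1; the cause was not tested. ATP6V0A1 was called in 1 fit over 12 libraries (0.30, limma adjusted p = 0.0461). The deviations of same-numbered libraries of 2 lines had r from -0.66 to 0.52, with 1 of 12 pairs over 0.1. That pair was replicate 2 of DU145 and PC3 (0.52), while replicates 1 and 4 of these lines had -0.45 and -0.66. Whether the numbers are a pairing was not tested. With the replicate block 7 of the 10 genes were called. Of 416 alternatives for the 24 list counts, 395 stayed within 1.5 times. The replicate block gave 1 call among the KAT2A complex genes between PC3 and DU145 in place of 3. With DU145 replicates 1 and 3 alone, the complex genes gave 8 calls between DU145 and BPH-1 and 6 between PC3 and DU145, and with replicates 2 and 4 alone 5 between PC3 and DU145. The ATP6V0A1 paralogues gave 2 calls between DU145 and BPH-1 with either DU145 pair alone and 1 to 2 without 1 library. With a filter of 1 FPKM they gave 0 calls between DU145 and BPH-1 and 0 between PC3 and DU145, and the other STAT genes gave 1 between PC3 and DU145, since fewer genes were tested. The 3 other STAT genes gave 1 call between PC3 and BPH-1 in place of 2 with no filter, with a filter of 1 FPKM, with the libraries rescaled to the same sum and with the replicate block, and 1 to 3 without 1 library; between DU145 and BPH-1 they gave 2 in place of 1 with DU145 replicates 2 and 4 alone, and 1 to 2 without 1 library. The longest run at the floor was 0 genes in DU145 where the other lines had to reach 3 FPKM. The DU145 pairs and the 1 percent limit were chosen after seeing the data.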
